A study of Bos taurus with 53 samples.

Results

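The comparison set the extraembryonic tissue of ovoid bovine embryos beside that of tubular embryos, all grown from oocytes that had matured in a medium with raised palmitic acid. The libraries were chosen by their labels alone: extraembryonic tissue (not an undissected embryo), medium HIGH PA, and morphology ovoid or tubular. This gave 8 of the 53 libraries of the series, 4 ovoid and 4 tubular. Bovine oocytes were matured in vitro, fertilised and grown to blastocysts, which were placed in the uterus of recipient cows, and on day 14 the conceptuses were recovered by flushing, assessed for shape and separated into disc and extraembryonic tissue. HIGH PA held 150 µM palmitic, 28 µM stearic and 21 µM oleic acid in 0.45% ethanol. BASAL, used here as the other medium, held 23 µM palmitic acid with the same stearic acid, oleic acid and ethanol, and CONTROL held neither fatty acid nor solvent. The fatty acids were present during oocyte maturation only, so all 8 embryos share that exposure and the same later culture. The ovoid libraries came from cow 72 (embryo 1, female, and embryo 2, male) and cow 07 (embryos 1 and 5, male). The tubular libraries came from cow 07 (embryo 3), cow 13 (embryos 1 and 2) and cow 813 (embryo 3), all male. Embryos of a cow in a medium shared a uterus, and only cow 07 gave both shapes, so cow and shape can be told apart only within cow 07. The embryo is the replicate, and p-values treat embryos of 1 uterus as independent.

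In cattle the conceptus does not implant at hatching. The blastocyst grows first into a sphere, then an ovoid and a tubular form, and finally a long filament, by growth of the trophectoderm with the hypoblast beneath it. The elongating trophectoderm secretes interferon tau, the signal by which the cow recognises pregnancy, makes prostaglandins and takes up lipid, and the nuclear receptor PPARG is known as a regulator of lipid genes there. Shape at a fixed day is therefore commonly read as a measure of how far a conceptus has advanced. The comparison asks which transcripts of the extraembryonic tissue go with that difference in shape under HIGH PA.

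The tissue label was held against marker genes. Levels are given as CPM, read counts normalised to the library's total after trimmed-mean (TMM) scaling, on the usual per-megaread scale. Keratins and trophoblast factors were abundant in every library: the 7 defining trophectoderm markers summed to 16057 to 24635 CPM in ovoid and 18742 to 31759 CPM in tubular libraries. Of the 8 defining hypoblast markers, APOA1, GATA4, SOX17, HNF4A and FOXA2 had counts in all 8 libraries, FOXA2 at 0.435 to 1.70 CPM. TTR was at 0 in all 8, and CUBN and APOB were at or near 0. The hypoblast markers summed to 413 to 1157 CPM in ovoid and 521 to 863 CPM in tubular libraries. In the HIGH PA discs the trophectoderm sum was 6592 to 20334 CPM, which overlaps both shapes, and the hypoblast sum was 1053 to 2552 CPM. Neither sum was therefore particular to extraembryonic tissue. The 5 defining disc markers, SOX2 and NODAL among them, summed to at most 3.05 CPM in ovoid and 4.43 CPM in tubular libraries, against 36.4 to 267 CPM in the 8 HIGH PA discs. SOX2 had counts in 1 of the 8 libraries (0.321 CPM in cow 72 embryo 1). Of 6 defining maternal and blood markers, 4 were in the table, PTPRC and HBB were at 0 in all 8 libraries, and the sum was 1.69 to 5.52 CPM in ovoid and 3.59 to 6.53 CPM in tubular libraries. In bulk tissue, fewer cells of a type and less RNA per cell cannot be told apart.

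Libraries within the ovoid group were not alike, and this bears on each result below. The ovoid libraries held 3883850 to 12917633 exon reads and the tubular libraries 7734152 to 19533821. In a principal component analysis of the 26 extraembryonic libraries in the fit, 5 stood apart, with scores above 30 on the first component, which carried 29.3% of the variance. Both HIGH PA ovoid libraries of cow 07 were among them, with 2 of the 4 BASAL ovoid and 1 of the 9 BASAL tubular libraries. Mitochondrially encoded genes took 11% and 10.7% of exon reads in these cow 07 ovoid libraries, against 4.15% and 5.29% in the ovoid libraries of cow 72 and 2.69% to 4.22% in the tubular libraries. Genes with at least 4000 bases of exon took 6.42% and 6.83% of their nuclear-encoded reads, against 10.1% to 12.3% in the other 6. Column headers mark 3 of the 4 ovoid libraries (cow 72 embryo 1 and both of cow 07) and 0 of the tubular ones with a "_2" whose meaning the sources used here do not give. In the fit 7 libraries were marked, and all 5 that stood apart were among them. The headers also carry a token (L and a number) that is called the lane here, although no label says what it stands for: 2, 3, 3 and 4 for the ovoid libraries and 3, 4, 8 and 8 for the tubular ones. The share of reads in introns did not overlap between the shapes, at 7.81% to 10.1% in ovoid and 6.45% to 7.08% in tubular libraries (exact permutation p = 0.0286, two-sided, the smallest that 4 against 4 can give, and 0.257 adjusted over 9 library measures). Mitochondrial share differed with an exact permutation p of 0.0571 (adjusted 0.257). Their part in the gene results was not tested beyond the alternative fits given below.

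**Figure D1:**
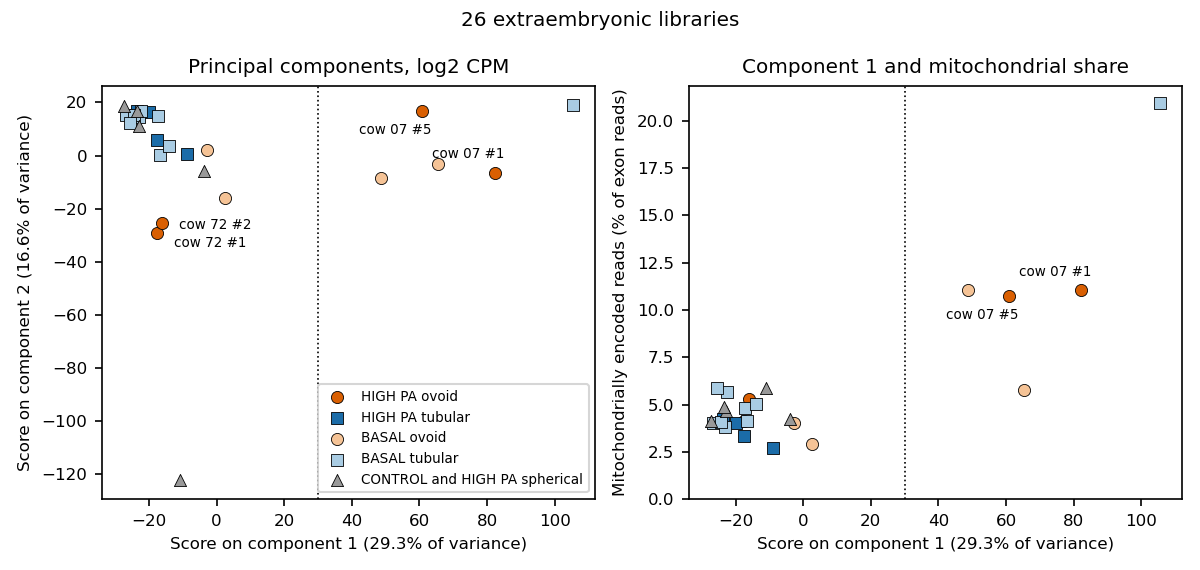
Principal component scores of the 26 extraembryonic libraries (left, component 1 against component 2) and the percentage of exon reads from mitochondrially encoded genes against component 1 (right), 1 point per library, with shape and medium by symbol and colour. Right of the dotted line at a score of 30 lie 5 libraries, among them both HIGH PA ovoid libraries of cow 07, at 11% and 10.7% mitochondrial reads, while the ovoid libraries of cow 72 lie left of it with the tubular ones.

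Among the genes of lowest p, enzymes of sphingomyelin, hexosamine and triglyceride synthesis and actin-binding proteins were higher in tubular libraries, and a retinol dehydrogenase, an iron exporter and a telomerase subunit were higher in ovoid ones, but with all libraries in the fit no gene passed the threshold. Of 11954 genes tested with edgeR's quasi-likelihood test, 0 (0%) had a Benjamini-Hochberg adjusted p under 0.05, and the smallest adjusted p was 0.0738. At an unadjusted p under 0.05 there were 1706 genes, of which 848 (7.09%) were higher in tubular and 858 (7.18%) higher in ovoid libraries. DESeq2 called 191 genes (1.6%), 115 higher in tubular, and limma-voom with the flush of a cow as a correlated block (estimated correlation 0.40) called 0. Without the 5 libraries that stand apart, a choice made after seeing the data, 166 genes (1.39%) were called higher in tubular and 108 (0.906%) higher in ovoid libraries. That fit compares the 2 cow 72 ovoid libraries with the 4 tubular ones, none of which is from cow 72, so there cow and shape cannot be told apart. Without the lane 8 libraries, which takes away 2 of the 4 tubular ones, 0 genes were called and 576 had an unadjusted p under 0.05, 242 (2.05%) higher in tubular and 334 (2.84%) higher in ovoid libraries. DESeq2 and the fit without the 5 libraries shared 68 called genes, all 68 with the same direction. Both rest on the same counts, the latter on fewer libraries, so the shared calls are not independent. The groups did not overlap for 399 genes (3.34%) with every tubular library above every ovoid one and for 424 (3.55%) the other way round. Below, log2 fold changes are tubular minus ovoid, so values above 0 mean more in tubular libraries, and each comes with its standard error (SE) and its adjusted p from edgeR with all libraries unless another fit is named. Of the 20 genes of lowest p, 10 in each direction, all 20 were called by DESeq2 and 15 without the 5 libraries, and all 20 kept their direction in each of 10 alternative fits. These fits reuse the libraries, or a part of them, from which the 20 were chosen, so the agreement is not independent support.

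Among the 10 genes of lowest p that were higher in tubular libraries, several act on sugars, lipids and the actin cytoskeleton. SGMS1, a sphingomyelin synthase of the Golgi (ENSBTAG00000011748, chromosome 26, 8735911 to 8775858, UMD3.1), had 24.6 and 44 CPM in the ovoid libraries of cow 72 (embryos 1 and 2), 24.2 and 32.5 CPM in those of cow 07 (embryos 1 and 5), and 117 (cow 07), 102 and 193 (cow 13) and 167 CPM (cow 813) in the tubular libraries. Every tubular library was above every ovoid one, cow 07's own tubular embryo included, and the log2 fold change was 2.25, SE 0.412, adjusted p = 0.0738. GFPT1, the rate-limiting enzyme of the hexosamine pathway (chromosome 11, 67684389 to 67728959), had 18.3, 19.1, 10.6 and 17.1 CPM in ovoid and 34.7, 33.1, 62.5 and 57.7 CPM in tubular libraries. Its groups did not overlap either (log2 fold change 1.6, SE 0.297, adjusted p = 0.0738). FOXA1, a transcription factor of endoderm and epithelia (chromosome 21, 48214178 to 48217962), had 6.10, 6.29, 8.79 and 6.71 CPM in ovoid and 12.8, 20.7, 41.5 and 39.2 CPM in tubular libraries. The ovoid values lay close together, and the highest were those of lane 8, cow 13 embryo 2 and cow 813 embryo 3 (log2 fold change 2.02, SE 0.384, adjusted p = 0.0741, and 1.19 without lane 8). TLN1, talin, which ties integrins to actin, had 125, 110.0, 97.3 and 119.8 CPM in ovoid and 174, 195, 282 and 267 CPM in tubular libraries (log2 fold change 1.02, SE 0.196, adjusted p = 0.0741). The log2 fold change was 1.76 (SE 0.362) for FLNC and 1.44 (SE 0.310) for PDLIM5, both proteins of the actin cytoskeleton. HKDC1, a hexokinase family member, had means of 111 ± 15.4 CPM in ovoid and 249 ± 96.8 CPM in tubular libraries, where ± is the SD over 4 libraries here and below unless another n is given. CRAT, carnitine acetyltransferase, had 56.6 ± 7.30 against 105 ± 27.4 CPM, and FRY had 3.25 ± 0.594 against 14.0 ± 5.25 CPM. These 9 genes did not overlap between the shapes. MOGAT1, which acylates monoacylglycerol on the way to triglyceride, had 53.2 and 57.8 CPM in the ovoid libraries of cow 72 (embryos 1 and 2), 90.9 and 178 CPM in those of cow 07 (embryos 1 and 5), and 228 (cow 07), 184 and 308 (cow 13) and 324 CPM (cow 813) in the tubular libraries. All tubular libraries of MOGAT1 were above all ovoid ones, but cow 07 embryo 5 was nearer to the tubular libraries than to those of cow 72 (log2 fold change 1.48, SE 0.310, adjusted p = 0.0819). For MOGAT1 the fit without the 5 libraries that stand apart gave 2.37 (SE 0.286, adjusted p = 0.000840). In all 10 genes the 2 lane 8 libraries were the highest of the 8, and without lane 8 the log2 fold changes were 0.61 (CRAT) to 1.82 (SGMS1), with HKDC1 at 0.64 where it was 1.21 with all libraries. Both lane 8 libraries of HIGH PA are tubular, so lane and shape cannot be told apart there.

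The genes of lowest p that were higher in ovoid libraries were of mixed function. RDH12, a retinol dehydrogenase (ENSBTAG00000012838, chromosome 10, 80159083 to 80167935, UMD3.1), had 18.8 and 12.6 CPM in the ovoid libraries of cow 72 (embryos 1 and 2), 11.2 and 5.69 CPM in those of cow 07 (embryos 1 and 5), and 3.08 (cow 07), 3.43 and 0.980 (cow 13) and 2.36 CPM (cow 813) in the tubular libraries. The groups did not overlap and the lowest value was that of cow 13 embryo 2 (log2 fold change -2.22, SE 0.390, adjusted p = 0.0738). CCBL1, an aminotransferase that also acts on kynurenine (chromosome 11, 99340499 to 99411162), had 172, 43, 71.3 and 46.8 CPM in ovoid and 23.2, 18.5, 12.4 and 20.2 CPM in tubular libraries. Cow 72 embryo 1 was far above the other ovoid libraries, all of which were above the tubular ones (log2 fold change -2.06, SE 0.408, adjusted p = 0.0819). SLC40A1, ferroportin, the iron exporter (chromosome 2, 6716590 to 6740329), had 60.6, 79.3, 41 and 57.0 CPM in ovoid and 30.8, 28.4, 34.8 and 16.1 CPM in tubular libraries (log2 fold change -1.18, SE 0.252, adjusted p = 0.0819). PHOSPHO1, a phosphatase of phosphocholine and phosphoethanolamine, had 80.5, 113, 119 and 70.6 CPM in ovoid and 38.5, 48.9, 24.5 and 40.7 CPM in tubular libraries, again with no overlap (log2 fold change -1.37, SE 0.295, adjusted p = 0.0819). WNK4, a kinase that regulates ion transport, had means of 21.4 ± 4.11 in ovoid and 9.48 ± 2.13 CPM in tubular libraries. None of these genes overlapped between the shapes. PDGFA, the growth factor ligand, had 58.3 ± 11.5 against 32.3 ± 5.58 CPM. TERT, the catalytic subunit of telomerase, had 5.71 ± 0.992 against 2.61 ± 0.748 CPM. The others were APEX2, an endonuclease of base excision repair (31.5 ± 10.9 against 11.5 ± 1.88 CPM), PDCD7 (8.26 ± 1.76 against 4.35 ± 0.705 CPM) and LENG8 (33 ± 10.3 against 18.7 ± 2.76 CPM). The last of these is among the 5 of the 20 genes that the fit without the 5 libraries did not call (adjusted p = 0.127).

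**Figure D2:**
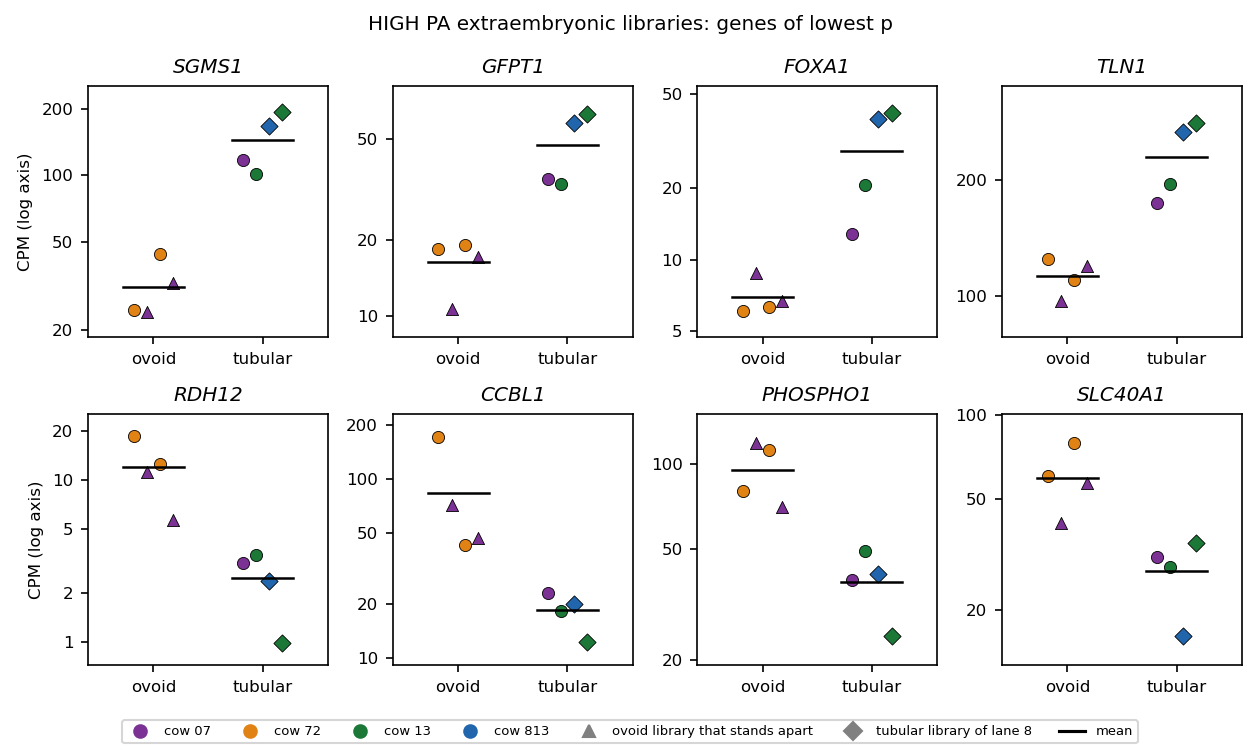
CPM on a log axis of 4 genes higher in tubular (top) and 4 higher in ovoid libraries (bottom), 1 point per library coloured by cow, with triangles for the 2 ovoid libraries that stand apart, diamonds for the 2 tubular libraries of lane 8 and a line at the group mean. For each of the 8 genes the 4 ovoid and 4 tubular points do not overlap, and in the top row the diamonds are the highest points.

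Interferon tau transcript was higher in all 4 tubular libraries than in 3 of the 4 ovoid ones, while more of the trophectoderm transcription factors had their higher values in ovoid libraries. IFNT2, the interferon tau gene of the table (ENSBTAG00000047551, chromosome 8, 22607642 to 22634001, UMD3.1), had 832 and 426 CPM in the ovoid libraries of cow 72 (embryos 1 and 2), 1044 and 3793 CPM in those of cow 07 (embryos 1 and 5), and 3585 (cow 07), 3296 and 5270.3 (cow 13) and 10204 CPM (cow 813) in the tubular libraries. Both cow 72 libraries and cow 07 embryo 1 were below every tubular library, while cow 07 embryo 5 was above 2 of the 4 tubular libraries, so the groups overlapped (log2 fold change 1.82, SE 0.462, adjusted p = 0.131). Within cow 07 alone the log2 fold change was 0.57, and without the 5 libraries, that is against cow 72 alone, it was 3.05 (adjusted p = 0.00511). Interferon tau genes are near-identical copies, so how their reads were shared out between copies is uncertain. Of 26 trophectoderm transcription factors 24 were tested, and 3 were higher in tubular and 6 higher in ovoid libraries at an unadjusted p under 0.05, the level that 7.09% and 7.18% of all genes reached. Their median log2 fold change was -0.31, against -0.03 for all genes tested, and -0.06 without the 5 libraries. GATA2, a trophoblast GATA factor, had 387, 383, 560.2 and 332 CPM in ovoid and 233, 243, 317 and 255 CPM in tubular libraries. Every ovoid library was above every tubular one (log2 fold change -0.68, SE 0.219, adjusted p = 0.200). DLX4, a homeobox factor, did not overlap either and had 13.8 ± 4.35 against 6.40 ± 1.09 CPM. ASCL2, a trophoblast transcription factor, had 253, 264, 628 and 436 CPM in ovoid and 219, 260.3, 229 and 216 CPM in tubular libraries. It was highest in the 2 cow 07 ovoid libraries, which hold the high mitochondrial share, and its log2 fold change was -0.77 with all libraries and -0.25 without the 5. MSX2 had 29.9 ± 10.5 against 19.3 ± 7.16 CPM. Of the 6 tested genes of binucleate and multinucleate trophoblast, 0 were higher in tubular and 2 higher in ovoid libraries at an unadjusted p under 0.05.

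A cyclooxygenase and a prostaglandin transporter had their highest values in the 2 tubular libraries of lane 8. PTGS2, the inducible cyclooxygenase (ENSBTAG00000014127, chromosome 16, 69263775 to 69271399), had 429 and 360.1 CPM in the ovoid libraries of cow 72 (embryos 1 and 2), 285 and 692 CPM in those of cow 07 (embryos 1 and 5), and 809 (cow 07), 740.0 and 7350.1 (cow 13) and 7575 CPM (cow 813) in the tubular libraries. The 2 highest libraries are those of lane 8, while the other 2 tubular libraries were just above the highest ovoid library, cow 07 embryo 5 (log2 fold change 3.37, SE 0.862, adjusted p = 0.131). Without lane 8 the log2 fold change was 0.81. SLCO2A1, the prostaglandin transporter, had 2.25 and 2.90 CPM in the ovoid libraries of cow 72 (embryos 1 and 2), 8.43 and 23.9 CPM in those of cow 07 (embryos 1 and 5), and 31.1 (cow 07), 23.1 and 100.2 (cow 13) and 108 CPM (cow 813) in the tubular libraries. Cow 07 embryo 5 was above the lowest tubular library, and the lane 8 libraries were again the highest (log2 fold change 2.79, SE 0.668, adjusted p = 0.106, and 1.49 without lane 8). Of 20 tested genes of prostaglandin and steroid synthesis, 5 were higher in tubular and 2 higher in ovoid libraries at an unadjusted p under 0.05, with a median log2 fold change of 0.28 (7.09% and 7.18% of all genes). Without lane 8 the list held 1 and 1, where 2.05% and 2.84% of all genes reached that level, and its median was -0.005.

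PPARG, a fatty acid transporter and a lipid droplet protein were higher in tubular libraries than in some or all of the ovoid ones. PPARG, the nuclear receptor named above (ENSBTAG00000001333, chromosome 22, 57366996 to 57489590), had 4.02 and 0.967 CPM in the ovoid libraries of cow 72 (embryos 1 and 2), 5.86 and 16.2 CPM in those of cow 07 (embryos 1 and 5), and 13.4 (cow 07), 16.2 and 48.3 (cow 13) and 39.2 CPM (cow 813) in the tubular libraries. Cow 07 embryo 5 was at the level of the second lowest tubular library, and the other 3 ovoid libraries were below all tubular ones (log2 fold change 2.11, SE 0.547, adjusted p = 0.131). Of the 13 tested PPAR and RXR receptors and coactivators, 2 were higher in tubular and 1, NR1H2, higher in ovoid libraries at an unadjusted p under 0.05 (7.09% and 7.18% of all genes). The counts were 1 and 0 without the 5 libraries (10% and 8.6% of all genes) and 0 and 0 without lane 8 (2.05% and 2.84%). The median log2 fold change of that list was 0.45 with all libraries, -0.16 without the 5, 0.31 without lane 8 and -0.08 with the mark as a term. NR1H2, a liver X receptor, had 58.4 ± 20.4 against 39.2 ± 3.14 CPM. SLC27A6, a fatty acid transport protein (chromosome 7, 26237928 to 26329594), had 32.1 and 0.242 CPM in the ovoid libraries of cow 72 (embryos 1 and 2), 18 and 51.9 CPM in those of cow 07 (embryos 1 and 5), and 77.8 (cow 07), 84.0 and 659 (cow 13) and 382 CPM (cow 813) in the tubular libraries. Its groups did not overlap, and cow 72 embryo 2 was far below the other ovoid libraries (log2 fold change 3.93, SE 1.11, adjusted p = 0.155). AGPAT3, an acyltransferase of phosphatidic acid synthesis, had 115, 137, 93.6 and 143 CPM in ovoid and 174, 214, 257 and 251 CPM in tubular libraries, with no overlap (log2 fold change 0.94, SE 0.221, adjusted p = 0.106). PLIN2, the coat protein of lipid droplets, had 14.3 and 31.7 CPM in the ovoid libraries of cow 72 (embryos 1 and 2), 88.8 and 87.9 CPM in those of cow 07 (embryos 1 and 5), and 68.7 (cow 07), 103 and 107 (cow 13) and 98.6 CPM (cow 813) in the tubular libraries. Here both cow 07 ovoid libraries were at the level of the tubular ones and only the cow 72 libraries were lower (log2 fold change 0.76, SE 0.376, adjusted p = 0.359). The cow 07 ovoid libraries are also those that stand apart, so cow and that trait cannot be told apart here. For PLIN2 the fit without the 5 libraries gave 2.13 (adjusted p = 0.00608), and within cow 07 it was -0.36. Of the 31 tested genes of fatty acid uptake, lipid droplets and triglyceride, 10 were higher in tubular and 2 higher in ovoid libraries at an unadjusted p under 0.05, against 7.09% and 7.18% of all genes. Without the 5 libraries these counts were 14 and 2, where the shares over all genes were 10% and 8.6%, and the median log2 fold change went from 0.21 to 0.92. Without lane 8 they were 2 and 2, where the shares over all genes were 2.05% and 2.84%, with a median of 0.12, and within cow 07 the median was -0.24.

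FADS1, the delta-5 desaturase, had 47.4, 30.7, 26 and 47.5 CPM in ovoid and 91.3, 95.8, 220.4 and 538 CPM in tubular libraries. Every tubular library was above every ovoid one, and cow 813 embryo 3 was the highest (log2 fold change 2.70, SE 0.656, adjusted p = 0.108, and 1.23 without lane 8). HSD17B12, which serves in the elongation of long fatty acids, had 345, 228, 207 and 226 CPM in ovoid and 478, 196, 619 and 640.4 CPM in tubular libraries, and cow 13 embryo 1 was within the ovoid range. Of 21 tested genes of fatty acid synthesis and desaturation, 6 were higher in tubular and 2 in ovoid libraries at an unadjusted p under 0.05, against 7.09% and 7.18% of all genes, with a median log2 fold change of 0.48. Without lane 8 the counts were 0 and 0 (2.05% and 2.84% of all genes) and the median 0.28, and with the mark as a term the median was 0.11. The whole list of fatty acid oxidation and carnitine genes held 2 genes in each direction among 31, CRAT among those higher in tubular libraries. Genes of cholesterol synthesis and uptake held 1 higher in tubular and 0 higher in ovoid libraries among 30.

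**Figure D3:**
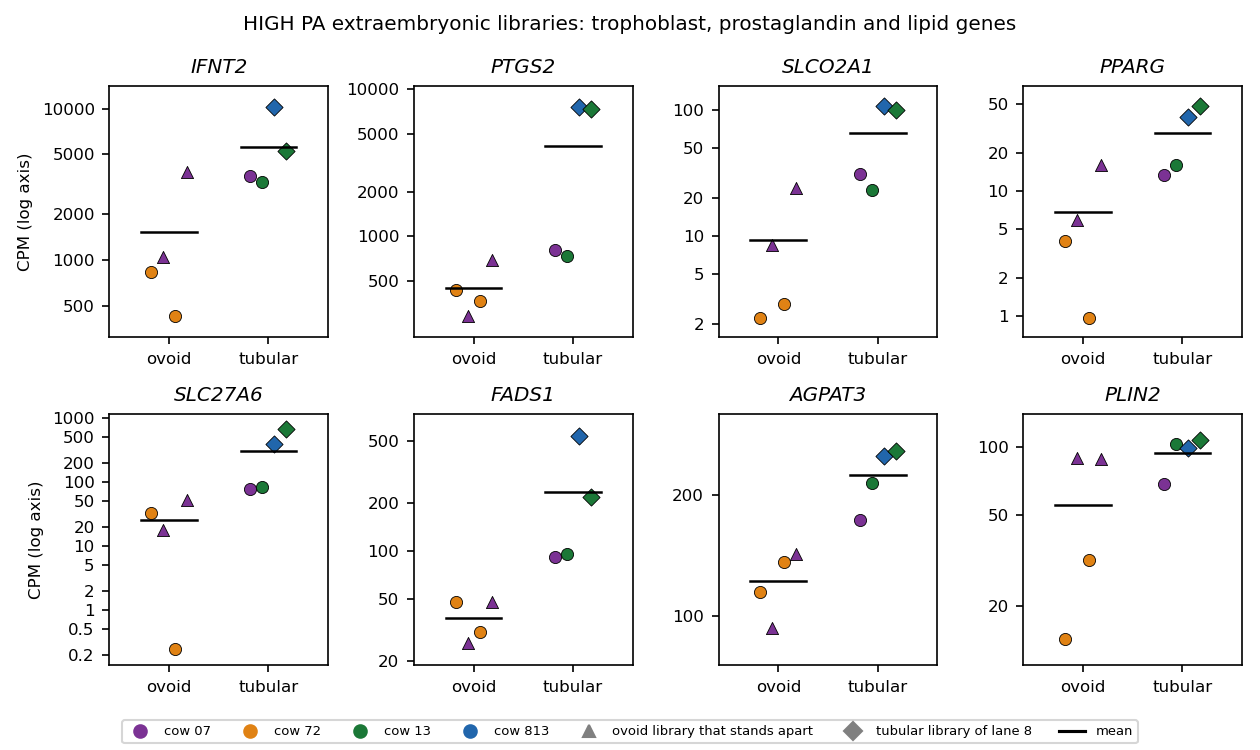
CPM on a log axis of interferon tau, prostaglandin, PPARG and lipid genes in the 8 HIGH PA extraembryonic libraries, coloured by cow, with triangles for the 2 ovoid libraries that stand apart, diamonds for the 2 tubular libraries of lane 8 and a line at the group mean. For IFNT2, SLCO2A1, PPARG and PLIN2 a cow 07 ovoid library reaches the tubular range while those of cow 72 (orange circles) stay below it, and for PTGS2 the 2 diamonds lie far above the other 6 points.

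Genes of the endoplasmic reticulum stress response that had an unadjusted p under 0.05 were all higher in tubular libraries. Of 32 tested genes of the unfolded protein response and its chaperones, 8 were higher in tubular and 0 higher in ovoid libraries, where 7.09% and 7.18% of all genes were. The counts were 13 and 0 without the 5 libraries (10% and 8.6% of all genes) and 3 and 0 without lane 8 (2.05% and 2.84%). The median log2 fold change was 0.24 with all libraries, 0.017 without lane 8 and -0.13 within cow 07. TRIB3, a pseudokinase induced by that stress, had 3.05, 1.21, 3.11 and 2.97 CPM in ovoid and 5.14, 13.5, 19.6 and 7.47 CPM in tubular libraries. Both embryos of cow 13 were the highest and the groups did not overlap (log2 fold change 2.12, SE 0.629, adjusted p = 0.176). HERPUD1, of the degradation machinery of the endoplasmic reticulum, had 69.7, 66.7, 50.6 and 89.4 CPM in ovoid and 68.7, 162, 164 and 117 CPM in tubular libraries, and cow 07 embryo 3 was within the ovoid range. Antioxidant and glutathione genes counted 7 higher in tubular and 4 higher in ovoid libraries among 37, 16 and 0 without the 5 libraries and 1 and 0 without lane 8. Their median was -0.03, that of all genes, and -0.12 without lane 8. CAT, catalase, had 337 ± 42.5 against 639 ± 261 CPM, with an overlap of the groups. TXNRD1, thioredoxin reductase, had 156 ± 29.7 against 271 ± 95.8 CPM, with no overlap.

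Adhesion and cytoskeletal lists also held more members higher in tubular than in ovoid libraries. Among 19 tested integrins and laminins, 7 were higher in tubular and 0 higher in ovoid libraries at an unadjusted p under 0.05 (7.09% and 7.18% of all genes). Without lane 8 the counts were 1 and 0, where 2.05% and 2.84% of all genes reached that level. LAMA5, a laminin chain of basement membranes, had 123, 84.4, 105 and 97.7 CPM in ovoid and 131, 194, 189 and 157 CPM in tubular libraries, with every tubular library above every ovoid one (log2 fold change 0.68, SE 0.212, adjusted p = 0.184). ITGA2, an integrin subunit, had low levels of 0.904 ± 0.800 against 2.86 ± 1.41 CPM, and cow 72 embryo 1 lay within the tubular range. These are components of, or receptors for, the layer on which the trophectoderm rests. NID2, a nidogen of basement membranes, had 196 ± 70.6 against 379 ± 114 CPM. In the cytoskeleton and small GTPase list, 9 of 57 were higher in tubular and 3 higher in ovoid libraries. The counts were 13 and 0 without the 5 libraries (10% and 8.6% of all genes) and 2 and 2 without lane 8 (2.05% and 2.84%). The median of that list was 0.075 with all libraries, -0.079 without lane 8 and -0.057 within cow 07. MYH10, a non-muscle myosin heavy chain, had 108, 126, 59.0 and 62.1 CPM in ovoid and 195, 181, 305 and 195 CPM in tubular libraries. The groups did not overlap, and cow 13 embryo 2 was far above the other tubular libraries (log2 fold change 1.31, SE 0.410, adjusted p = 0.184). FLNA, filamin A, had 385, 231, 186 and 212 CPM in ovoid and 331, 400.1, 471 and 431 CPM in tubular libraries, and cow 72 embryo 1 was within the tubular range. ADAMTS9, a secreted metalloprotease, had 40.5, 16.9, 13.7 and 27.8 CPM in ovoid and 85.4, 119, 86.7 and 120.2 CPM in tubular libraries, with no overlap (log2 fold change 2.03, SE 0.637, adjusted p = 0.185). SERPINB9, an inhibitor of granzyme B, had 0.806 ± 0.761 against 2.55 ± 0.544 CPM. Proteases and inhibitors counted 7 and 3 among 30, and 1 and 1 without lane 8 (2.05% and 2.84% of all genes). PARD3, a polarity protein, had 73.2 ± 14.0 against 102 ± 12.2 CPM, while the basal keratin KRT14 had 2.52 ± 1.04 against 0.599 ± 0.420 CPM and was higher in every ovoid library.

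Signalling lists held single genes with values higher in tubular or in ovoid libraries. In the FGF list, 5 of 24 were higher in tubular and 4 higher in ovoid libraries at an unadjusted p under 0.05, a level that 7.09% and 7.18% of all genes reached, here and in the lists that follow. DUSP4 and SPRY4, feedback inhibitors of that pathway, were both higher in every tubular library. DUSP4 had 0.482, 1.21, 0.366 and 4.07 CPM in ovoid and 5.65, 5.97, 14.4 and 11.1 CPM in tubular libraries (log2 fold change 2.32, SE 0.611, adjusted p = 0.136). SPRY4 had 1.12, 1.93, 1.65 and 2.72 CPM in ovoid and 4.24, 5.97, 5.33 and 5.01 CPM in tubular libraries (log2 fold change 1.27, SE 0.390, adjusted p = 0.184). In the WNT list 4 of 34 were higher in tubular and 1 higher in ovoid libraries, and the pair of lowest p went opposite ways. FZD5, a WNT receptor, had 1.1 ± 0.394 against 5.58 ± 2.99 CPM, and AXIN2, a feedback inhibitor, had 10.6 ± 1.51 against 4.50 ± 2.55 CPM. For the TGF-beta, BMP and Nodal list the counts were 3 and 2 among 30. ID3, a target of BMP signalling, had 40.02 ± 22.4 against 19.2 ± 6.12 CPM, and SMAD1, which carries that signal, 24.8 ± 5.18 against 48.4 ± 19.5 CPM. Of 23 Hippo pathway genes and YAP targets, 5 were higher in tubular and 0 higher in ovoid libraries. Without lane 8 the counts were 2 and 0, where 2.05% and 2.84% of all genes reached that level. TEAD1, the DNA-binding partner of YAP, had 9.32, 10.4, 2.93 and 5.94 CPM in ovoid and 16.3, 16.8, 15.3 and 13.4 CPM in tubular libraries. It did not overlap, and the cow 07 ovoid libraries were the lowest (log2 fold change 1.2, SE 0.416, adjusted p = 0.228, and 0.71 without the 5 libraries). SAV1, a scaffold of the Hippo kinases, had 8.24 ± 3.82 against 13.1 ± 1.70 CPM. Insulin-like growth factor genes counted 1 and 2 among 18, with IRS1, the receptor's adaptor, at 2.83 ± 1.45 against 10.2 ± 5.79 CPM and IGFBP4 at 1.95 ± 0.601 against 0.703 ± 0.474 CPM.

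Transporters and cell cycle genes gave single members. SLC7A2, a carrier of cationic amino acids, had 0.964, 0.726, 0.366 and 0.679 CPM in ovoid and 5.26, 4.98, 8.11 and 1.57 CPM in tubular libraries, with no overlap at low levels (log2 fold change 2.83, SE 0.677, adjusted p = 0.106). SLC43A3 was higher in every ovoid library, at 22.5 ± 1.23 against 15.1 ± 2.61 CPM. KCNK1, a potassium channel, had 71.1 ± 19.3 against 105 ± 16.6 CPM and was higher in every tubular library. TIPARP, a target of the aryl hydrocarbon receptor, had 15 ± 7.80 against 39.7 ± 10.9 CPM. Among 56 cell cycle and replication genes, 5 were higher in tubular and 1, MYBL2, higher in ovoid libraries at an unadjusted p under 0.05, a share near the 7.09% of all genes for the first and below their 7.18% for the second. These are genes of replication and mitosis. MYBL2, a cell cycle transcription factor, had 419 ± 132 against 264 ± 29.7 CPM, and E2F8, a repressor of E2F targets, 7.94 ± 4.04 against 17.2 ± 1.42 CPM. UHRF1, which serves maintenance of DNA methylation, had 54.1, 58.3, 61.6 and 61.8 CPM in ovoid and 79.9, 82.0, 73.3 and 75.8 CPM in tubular libraries. The difference is small and every tubular library was above every ovoid one (log2 fold change 0.36, SE 0.130, adjusted p = 0.242). SETDB1, a histone H3K9 methyltransferase, had 19 ± 2.04 against 25.4 ± 1.75 CPM.

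CTSH and CTSZ, both cathepsins, were higher in ovoid than in tubular libraries on average. CTSH, a lysosomal cysteine protease, had 216, 194, 189 and 95.2 CPM in ovoid and 81.5, 80.4, 38 and 52.4 CPM in tubular libraries. Its groups did not overlap (log2 fold change -1.36, SE 0.322, adjusted p = 0.106), and it was called without the 5 libraries (adjusted p = 0.0265). CTSZ had 233, 151, 357 and 115 CPM in ovoid and 126, 92.3, 42.9 and 61.1 CPM in tubular libraries, and cow 07 embryo 5 was within the tubular range. Of 41 tested lysosomal genes, 5 were higher in ovoid and 1 higher in tubular libraries at an unadjusted p under 0.05 (7.18% and 7.09% of all genes). Without lane 8 the counts were 3 and 0, where 2.84% and 2.05% of all genes reached that level. In the interferon response list 3 of 16 were higher in ovoid and 0 higher in tubular libraries at an unadjusted p under 0.05 with all libraries (7.18% and 7.09% of all genes). The counts were 1 and 1 among 17 without the 5 libraries (8.6% and 10% of all genes) and 2 and 0 without lane 8 (2.84% and 2.05%). The median log2 fold change of that list was 0.05 with all libraries and -0.05 without the 5. IFI35, an interferon-induced gene, had 10.1 ± 0.727 against 5.36 ± 1.61 CPM, with no overlap.

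Markers of the hypoblast, disc and mesoderm were read with the marker sums in view. GATA4, a hypoblast factor, had 15.1, 21.5, 20.7 and 25.7 CPM in ovoid and 9.50, 23.1, 16.2 and 17.1 CPM in tubular libraries, with overlapping groups (log2 fold change -0.39, SE 0.273, adjusted p = 0.490). APOA2, an apolipoprotein of the yolk sac, had 15.1 ± 8.01 against 4.15 ± 1.19 CPM, with no overlap. HNF4A, a defining hypoblast marker named here after its values were seen, did not overlap the other way round, at 4.92 to 6.77 CPM in ovoid and 8.60 to 18.03 CPM in tubular libraries. FOXA1, given above, is of the same list and was also higher in every tubular library. Of 25 tested hypoblast and yolk sac genes, 3 were higher in tubular and 4 higher in ovoid libraries at an unadjusted p under 0.05. Over all genes tested the shares at that level were 7.09% and 7.18%. The whole list of 36 measured genes summed to 5241 to 8742 CPM in ovoid and 8102 to 12135 CPM in tubular libraries. DPPA2, a gene of pluripotent cells, had 19.4 and 22.0 CPM in the ovoid libraries of cow 72 (embryos 1 and 2), 4.58 and 1.70 CPM in those of cow 07 (embryos 1 and 5), and 4.62 (cow 07), 1.66 and 0.327 (cow 13) and 1.77 CPM (cow 813) in the tubular libraries. It was high in cow 72 alone, where the defining disc markers SOX2, NODAL, EOMES and PRDM14 each had under 1 CPM. The fifth, LIN28B, had 2.73 and 1.69 CPM in the ovoid libraries of cow 72, 0.183 and 0.170 in those of cow 07 and 0.982 to 4.09 in the tubular ones. Among ovoid libraries SOX2 and NODAL had counts in cow 72 alone. UTF1 had 10.1 ± 8.16 against 4.32 ± 1.95 CPM. Of the 24 measured primitive streak and mesoderm genes, T, GSC, WNT8A and CER1 were at 0 in all 8 libraries, and the list summed to 112 to 256 CPM in ovoid and 49.0 to 103 CPM in tubular libraries, without overlap. SNAI1, a repressor of epithelial genes, was a main part of that sum, with 67.3, 93.8, 221 and 101 CPM in ovoid and 35.4, 71.2, 78.9 and 70.9 CPM in tubular libraries, and cow 07 embryo 1 was the highest. MSX1 had 3.61 ± 1.06 against 1.17 ± 0.606 CPM. CD68, a lysosomal protein of macrophages, had 3.69, 3.39, 20.2 and 16.1 CPM in ovoid and 1.54, 3.21, 2.07 and 2.55 CPM in tubular libraries. The 2 cow 07 ovoid libraries were high and the other 6 lay between 1.54 and 3.69 CPM, while PTPRC, CSF1R and LYZ, other genes of blood cells, were at 0 in all 8. PECAM1, of endothelium and blood cells, had 0.414 ± 0.230 against 1.36 ± 0.684 CPM. The maternal and blood list, 24 genes measured and 8 of them at 0 in all 8 libraries, summed to 14.0 to 51.3 CPM in ovoid and 24.5 to 27.6 CPM in tubular libraries.

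Mitochondrially encoded and ribosomal protein genes differed mainly through the libraries of cow 07. COX3, a subunit of cytochrome c oxidase encoded in mitochondrial DNA, had 4703 and 6124 CPM in the ovoid libraries of cow 72 (embryos 1 and 2), 20630.3 and 15395 CPM in those of cow 07 (embryos 1 and 5), and 4476 (cow 07), 3295 and 4993 (cow 13) and 4777 CPM (cow 813) in the tubular libraries. Only the 2 cow 07 ovoid libraries were high, and the cow 72 libraries lay within or just above the tubular range (log2 fold change -1.37, SE 0.624, adjusted p = 0.333, and -0.23 without the 5 libraries). The 12 tested mitochondrially encoded genes had a median log2 fold change of -1.08, and of -0.25 without the 5. For 42 cytosolic ribosomal protein genes the median turned from -0.26 to 0.18, and for 55 nuclear genes of oxidative phosphorylation from -0.27 to 0.12. Of the 42 ribosomal protein genes, 2 were exceptions that were higher in every ovoid library, as 3.55% of all genes were. RPL12, a ribosomal protein whose processed copies could share reads, did not overlap, with 904, 1051, 1972 and 1788 CPM in ovoid and 569, 558, 214 and 225 CPM in tubular libraries. The imprinted list moved likewise, from -0.58 over 13 genes to 0.02.

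**Figure D4:**
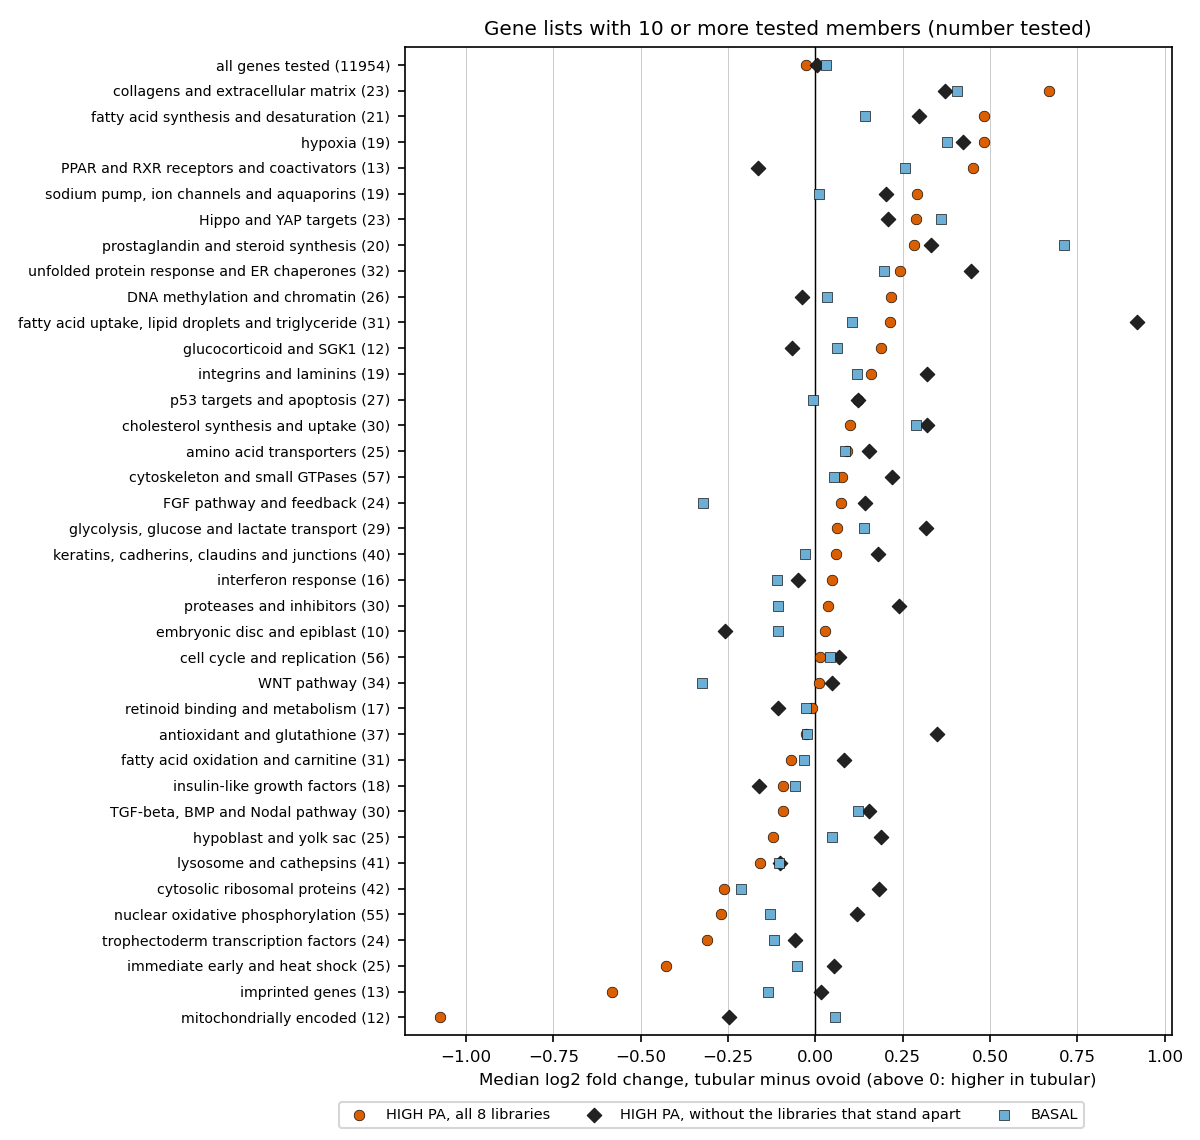
Median log2 fold change of tubular minus ovoid libraries for each gene list with at least 10 tested members and for all genes (top row), with circles for HIGH PA with all libraries, diamonds for HIGH PA without the libraries that stand apart and squares for BASAL. Lipid uptake, antioxidant and ribosomal protein lists shift to the right without those libraries, and of 42 lists 14 change the sign of their median.

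The same contrast in BASAL gives embryos outside the HIGH PA groups, with 4 ovoid and 9 tubular libraries in the fit, 2 and 1 of which stood apart. RDH12 was the single gene called there, higher in ovoid libraries (log2 fold change -2.04, SE 0.313, edgeR adjusted p = 0.0155), with 9.31 ± 1.91 CPM in ovoid (SD, n = 4) and 2.31 ± 0.798 CPM in tubular libraries (n = 9). BASAL embryos share cows, and 0 genes were called with cow as a block (smallest adjusted p 0.986) or by limma-voom with the flush block (0.230). Without the 5 libraries 0 were called too, with 2450 at an unadjusted p under 0.05. With all libraries 1496 genes (12.5%) were higher in tubular and 932 (7.8%) higher in ovoid libraries at an unadjusted p under 0.05. Of the 1706 HIGH PA genes at that level, 498 (29.2%, or 20.5% of the 2428 BASAL genes) were also there in BASAL, 478 of them in the same direction. Of the 20 genes of lowest p in HIGH PA, 19 had the same direction in BASAL. Among the 100 of lowest p in HIGH PA that count was 91 with all libraries. In the fit without the 5 libraries it was 66 of the 100 of lowest p in that fit. SGMS1 had a log2 fold change of 0.99 in BASAL, MOGAT1 0.97, PTGS2 2.52, PPARG 1.04 and IFNT2 0.60. The BASAL libraries of lane 8 in the fit, cow 813 embryo 3 and cow 07 embryo 1, are tubular too. Lane and shape therefore cannot be told apart there either, and the BASAL contrast was not fitted without lane 8. Across 11954 genes the 2 sets of log2 fold changes had a Spearman rho of 0.50, given as a description since genes are not independent and both ovoid groups hold 2 libraries that stand apart. Leaving out the 5 libraries gave a rho of 0.14 over 11924 genes, and 279 of 435 genes at an unadjusted p under 0.05 in both media had the same direction.

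**Figure D5:**
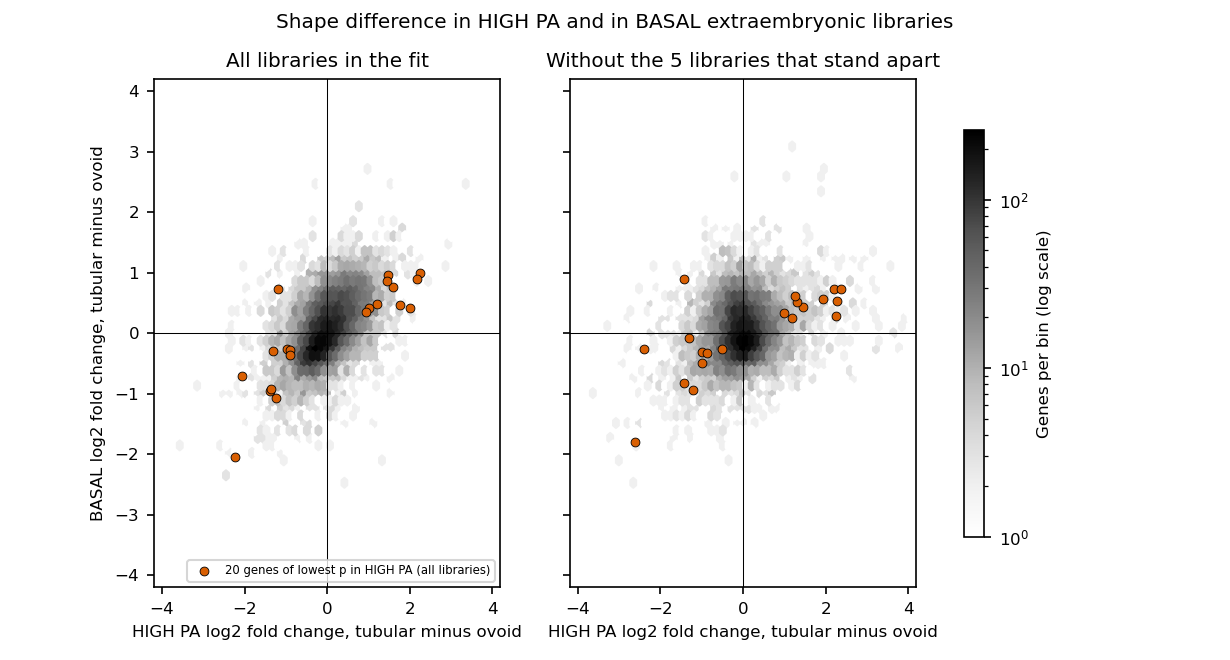
Log2 fold change of tubular minus ovoid libraries in HIGH PA (x axis) and in BASAL (y axis) for all tested genes, shaded by the number of genes per bin, with all libraries (left) and without the 5 libraries that stand apart (right). Orange points are the 20 genes of lowest p in HIGH PA with all libraries, of which SLC40A1 is the single one left of 0 on the x axis and above 0 on the y axis, and genes beyond the axes are not drawn. The cloud is tilted on the left (rho 0.50) and nearly round on the right (rho 0.14).

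The difference of the shape effect between the media was tested directly. With all libraries 0 of 11954 genes were called by edgeR (764, or 6.39%, at an unadjusted p under 0.05), 7 by DESeq2 and 0 by limma-voom with the flush block. Without the 5 libraries 56 were called, 21 with a higher and 35 with a lower value of tubular minus ovoid in HIGH PA than in BASAL. SLC40A1 had the lowest p. In HIGH PA it was higher in every ovoid library, as given above, while in BASAL it had 27.5 ± 5.29 CPM in ovoid (range 20.1 to 31.8, n = 4) and 43.6 ± 10.4 CPM in tubular libraries (lowest 28.0, median 43.1, highest 57.1, n = 9). The difference of its 2 log2 fold changes was -1.91 (SE 0.341, adjusted p = 0.139), and -2.33 (adjusted p = 0.0221) without the 5 libraries. SHISA2, an inhibitor of WNT and FGF receptors, likewise had 82.7 ± 14.4 in ovoid against 45.1 ± 11.7 CPM in tubular HIGH PA libraries and 28.5 ± 14.8 against 67.2 ± 31.8 CPM in BASAL (adjusted p of the difference = 0.360). SPRY4 went the other way, with 7.61 ± 4.65 CPM in ovoid and 3.52 ± 1.68 CPM in tubular BASAL libraries (difference 2.23, adjusted p = 0.485). KIF26B, a kinesin family member, had 1.34 ± 1.05 against 12.4 ± 6.49 CPM in HIGH PA and 4.79 ± 2.77 against 6.56 ± 4.34 CPM in BASAL (adjusted p of the difference = 0.734).

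Cow 07 is the single cow with both shapes in HIGH PA, and its 2 ovoid libraries stand apart while its tubular one does not. With 1 tubular library there, the spread comes from the other libraries, and that library is assumed to vary like them. The fit within cow 07 called 1816 genes, 1414 of them higher in the tubular library. Of these calls 29 were shared with the 274 made without the 5 libraries, 18 of the 29 in the same direction. The 20 genes of lowest p had the same direction within cow 07 and 6 of them were called, but these 3 libraries were also part of the fit that chose the 20. SGMS1 had a log2 fold change of 2.03 there, RDH12 -1.42 and CCBL1 -1.34, against 0.75 for FOXA1, 0.22 for PPARG and 0.73 for PTGS2. With male embryos only, which leaves out cow 72 embryo 1 here and the females of the other groups, 818 genes were called, the 20 included, 395 higher in tubular and 423 higher in ovoid libraries. The male libraries were also part of the fit that chose the 20.

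The discs of the same 8 embryos were compared the same way. There 0 of 11033 genes were called (459, or 4.16%, at an unadjusted p under 0.05), 2 by DESeq2 and 0 by limma-voom with the flush block. The ovoid discs held 119116 and 540818 exon reads (cow 72 embryos 1 and 2) and 2367927 and 1334459 (cow 07 embryos 1 and 5). The tubular discs held 1352103 to 4005676, and the 8 extraembryonic libraries 3883850 to 19533821. The part of disc depth in these results was not tested. Of the 20 extraembryonic genes of lowest p, 14 had the same direction in discs. SLC27A6 had a log2 fold change of 2.76 in discs (SE 1.08), IFNT2 1.34 (SE 0.648), DPPA2 -2.38 (SE 0.885), SGMS1 0.41 (SE 0.555) and RDH12 -0.37 (SE 0.499). The adjusted p was above 0.05 for each of these.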

How the data were processed

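RNA of day 14 bovine conceptuses was sequenced as stranded, poly(A)-selected, paired 50-base reads (TruSeq), with 12 samples per lane, per the labels' protocols. The authors deposited 1 table of 24596 features with whole-number exon read counts per gene for 53 libraries, beside counts of uniquely placed exon reads and of intron reads, per the file headers. The submitters' processing notes name UMD3.1 and DESeq2 1.10.1. The aligner, the annotation release and whether counting used strand are not given in the sources used here. Of the features 18541 carry a symbol and 6055 do not, and no gene sequence or genome of the build was used here.

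Counts of the 26 extraembryonic libraries with a labelled sex and at least 10000 exon reads were fitted together in edgeR 4.0.16 (R 4.3.3; TMM scaling, filterByExpr, quasi-likelihood test, 18 residual degrees of freedom), with a term for each medium and shape and 1 for sex. Besides the 8 HIGH PA libraries the fit holds 4 ovoid and 9 tubular BASAL, 4 CONTROL and 1 spherical HIGH PA library. Benjamini-Hochberg adjustment ran over all genes tested, with calls at an adjusted p under 0.05. Discs were fitted likewise (22 libraries, 16 residual degrees of freedom). A simulation from the real means and library sizes (11708 genes) gave calls for 0 of 66 genes changed 1.5-fold, 21 of 66 changed 2-fold and 51 of 65 changed 4-fold, with 4 false calls. In the real comparison no gene was called, SGMS1 at 4.75-fold included, so these rates hold for the simulated data only. Exon reads per library were 3883850 to 19533821, and for genes of a few CPM counting error adds to the spread. Measures of a library were compared with scipy 1.17.1, and figures drawn with matplotlib 3.10.9.

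Genes named were the 10 of lowest p in each direction, up to 2 of lowest p in each of 42 gene lists, IFNT2, PPARG, PLIN2, GATA4, PTGS2 and SOX2, and, for the difference between media, 5 genes in each direction by lowest p, of which the text takes a part, and some are not reported here. The comparison and the lists were chosen with earlier results of these data known. DESeq2 1.42.0, limma-voom 3.58.1 with the flush as a correlated block, other scalings, filters, covariates and left-out libraries were tried. The fits without the 5 libraries that stand apart, without lane 8 and with mitochondrial share as a term were chosen after seeing the data. Over the 1378 pairs of libraries 0 held identical counts. A library of 9810 reads and a spherical one of undetermined sex were left out of the extraembryonic fit.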

Additional observations from a re-analysis of the deposited data

Results flagged for a closer look

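Of 178 groups of 4 libraries checked over the named genes and the 9 library measures, 8 held 1 library far from the other 3 (its gap to the nearest, relative to the range, was above Dixon's 95% critical value), and chance alone gives about 1 in 20. Among ovoid libraries cow 07 embryo 1 had 75.5 CPM of PDGFA (others 51.1 to 53.7), 88.8 CPM of NR1H2 (others 46.6 to 50.4) and 614 CPM of MYBL2 (others 328 to 371). Cow 72 embryo 1 had 345 CPM of HSD17B12 (others 207 to 228), and cow 72 embryo 2 had 1.21 CPM of TRIB3 (others 2.97 to 3.11). Among tubular libraries cow 13 embryo 2 had 179 CPM of FLNC (others 78.3 to 87), 305 CPM of MYH10 (others 181 to 195) and 8.65 CPM of APEX2 (others 12.2 to 12.6). Cow 07 embryo 1 is 1 of the 5 libraries that stand apart, and cow 13 embryo 2 is the deepest of the 8.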

How the results depend on the processing

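With all libraries edgeR called 0 genes between ovoid and tubular HIGH PA libraries. The number was 191 with DESeq2, 4 with libraries under 10000 reads kept, 5 without the sex term, 2 with only the 8 libraries and no sex term, 15 without the marked libraries (which leaves cow 72 embryo 2 as the lone ovoid library, assumed to vary like the other groups), 818 with male embryos only, 1816 within cow 07 and 274 without the 5 libraries that stand apart. Leaving out 1 library at a time gave 0 to 11 genes: 11 without ovoid cow 07 embryo 5, 9 without tubular cow 07 embryo 3 or cow 13 embryo 1, 1 without ovoid cow 07 embryo 1 and 0 without each of the others. Under the other 12 alternatives 0 were called. The share of genes higher in tubular libraries among those at an unadjusted p under 0.05 was 49.7%, and 53.7% with DESeq2 size factors, 61.0% with limma-voom and a correlated flush block, 58.4% with cow as a block and 42% without lane 8. In BASAL the single call became 591 with DESeq2, 0 with cow as a block, limma-voom with the flush block, the marked libraries left out, the mark as a term or without the 5 libraries, and 0 to 372 with 1 of the 4 ovoid libraries left out (372 without ovoid cow 12 embryo 1, 82 without ovoid cow 07 embryo 2). The difference between media gave 0 calls, 7 with DESeq2, 56 without the 5 libraries and 0 to 1 with 1 HIGH PA library or 1 BASAL ovoid library left out. Discs gave 0 calls, 2 with DESeq2 and 0 to 0 with 1 disc left out. The cause of these moves was not tested.

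No paired analysis was possible because ovoid and tubular libraries are different embryos whose numbers are only names within a cow. The tubular minus ovoid difference in intron share was -1.85 percentage points and -2.12 to -1.35 with 1 library left out, where 3 against 4 cannot reach a p under 0.05. That of the summed hypoblast markers was -37.3 CPM, and 3.34 and 104 without ovoid cow 07 embryo 1 and embryo 5, 20.7 and 1.77 without tubular cow 07 embryo 3 and cow 13 embryo 1, within a range of -143.7 to 104. Over 80 genes 6 of 2236 log2 fold changes changed sign: PLIN2 was -0.084 with cow as a block and -0.36 within cow 07, where HERPUD1 was -0.035 and DPPA2 0.65, and COX3 was 0.062 with the mark and 0.092 with mitochondrial share as a term. Of the rest 178 passed the threshold with the same direction. DESeq2 size factors moved no list's median by over 0.0179 and changed the sign of 0 of 42, while the mark as a term changed that of 19.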
